A study of Mus musculus with 4 samples.

Results

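The genes described here are 10 Fc receptor and mast cell genes, measured in mouse MEL cells and ES-EP cells. They are the high-affinity IgE receptor chains Ms4a2, Fcer1a and Fcer1g, the IgG receptors Fcgr1, Fcgr2b, Fcgr3 and Fcgr4, the mast cell effector genes Hdc and Mcpt1, and the transcription factor Mitf. All 10 were among the 19938 genes that had a probe set of their own on the array. The genes were selected on the difference between MEL and ES-EP seen in these same arrays, so their differences are a description and carry no test.

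MEL cells are erythroleukemic blasts, here clone DS19 stably carrying a fusion of GATA-1 to the estrogen receptor (ER), grown in DMEM with serum and puromycin. ES-EP cells are non-leukemic erythroid progenitors derived from embryonic stem cells, grown in StemPro34 with erythropoietin (Epo), IGF-1, dexamethasone and stem cell factor (SCF). RNA of 2 proliferating cultures of each cell type, A and B, was hybridized to Affymetrix Mouse Gene 1.0 ST arrays, with 1 array per culture. Each cell type is a single line, and the cell type and its medium cannot be told apart. The spread between cultures is therefore the only error measured.

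Fc receptors bind the constant part of antibodies. The high-affinity IgE receptor of mast cells and basophils combines an IgE-binding alpha chain, a signal-amplifying beta chain and a gamma chain whose ITAM, a tyrosine motif, recruits the kinase Syk. In rodents the beta chain is needed for the receptor to reach the surface. The activating IgG receptors also depend on the gamma chain, whereas the inhibitory IgG receptor signals through a motif of its own. Mast cells release histamine and proteases from granules, and their development depends on Kit, Mitf and GATA factors.

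Promoter sequences are shown for Ms4a2, Fcer1a and Mcpt1, because the beta and alpha chains of the IgE receptor had contrasting signals and Mcpt1 was the second most different gene. The sequences are from RefSeq (GRCm38.p6), run from 250 bases before to 50 bases after the annotated start, and are written along the strand of the gene. Capitals mark GATAA or its reverse complement TTATC, a core that GATA factors recognize. The Ms4a2 window is chr19:11623670-11623969 on the minus strand, the Fcer1a window is chr1:173227180-173227479 on the minus strand and the Mcpt1 window is chr14:56017714-56018013 on the plus strand.
Ms4a2: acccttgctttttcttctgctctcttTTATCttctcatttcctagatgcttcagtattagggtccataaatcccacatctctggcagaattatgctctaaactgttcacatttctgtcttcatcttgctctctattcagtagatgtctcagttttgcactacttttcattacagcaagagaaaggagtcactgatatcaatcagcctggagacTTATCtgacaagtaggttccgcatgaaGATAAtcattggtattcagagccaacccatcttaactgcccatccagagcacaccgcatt
Fcer1a: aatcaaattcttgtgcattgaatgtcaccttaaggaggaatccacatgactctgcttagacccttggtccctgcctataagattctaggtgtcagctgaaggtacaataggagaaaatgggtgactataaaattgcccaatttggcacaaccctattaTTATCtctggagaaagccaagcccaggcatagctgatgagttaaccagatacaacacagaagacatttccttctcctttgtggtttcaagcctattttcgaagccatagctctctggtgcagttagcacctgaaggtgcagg
Mcpt1: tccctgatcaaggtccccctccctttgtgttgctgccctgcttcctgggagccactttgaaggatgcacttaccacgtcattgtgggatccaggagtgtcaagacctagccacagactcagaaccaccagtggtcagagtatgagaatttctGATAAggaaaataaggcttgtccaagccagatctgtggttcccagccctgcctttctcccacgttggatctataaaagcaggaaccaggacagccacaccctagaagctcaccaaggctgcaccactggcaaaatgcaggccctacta
The Ms4a2 window held 3 matches, at -224 and -37 in reverse and at -10 in the forward direction. The Fcer1a window held 1 reverse match at -92, and the Mcpt1 window held 1 forward match at -98. Among all 32851 mouse promoters annotated there, 25.4% had GATAA on either strand, and 0.938% had 3 or more matches. Among the 13 promoters of the 10 genes, 6 had GATAA, 5 had GAGGAA or TTCCTC (28.3% of all promoters), 2 had CATGTG or CACATG (14.2%) and 3 had TATAAA or TTTATA (13.6%). Within any single window of the 10 genes, no 2 of these matches overlapped. The 2 windows of Fcgr3 overlap each other, and their GAGGAA matches, at -6 and -15, are the same bases counted in both. A match is a string of letters and not a measured binding site.

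Signals are log2 values, in which a difference of 1 is 2-fold. The difference is always MEL minus ES-EP. Each SE of a difference is the moderated SE of the limma fit, which draws a gene's variance toward a value shared by all genes. It can be smaller or larger than the spread of that gene's own cultures would give. Because no detection calls were used, a background level was set at the 95th percentile of 1027 olfactory receptor genes, which are used mainly in the nose. It was 5.19 in MEL and 5.56 in ES-EP. A signal below it cannot be told from background, and a fold against such a signal is not exact.

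The IgE receptor chains differed from each other in direction. Ms4a2, the beta chain on chromosome 19, had 4.08 and 3.83 in MEL, against 11.15 and 10.96 in ES-EP. Both ES-EP cultures were high, both MEL cultures were at background, and the groups were far apart. The SD of the 2 cultures was 0.18 in MEL and 0.13 in ES-EP. The difference was -7.10 ± 0.10 (moderated SE, n = 2 each), or 137-fold. Fcer1a, the IgE-binding alpha chain on chromosome 1, had 3.91 and 3.91 in MEL, against 3.95 and 4.07 in ES-EP. All 4 arrays were below the background level, and the difference of -0.10 ± 0.08 (SE) was not called. Fcer1g, the gamma chain on chromosome 1, had 6.56 and 6.51 in MEL, against 4.83 and 5.01 in ES-EP. The MEL cultures were both above background and the ES-EP cultures were both below it, with a difference of 1.62 ± 0.09 (SE), or 3.07-fold. Thus each cell type had a clear signal for a different chain of this receptor, and neither had a signal above background for the alpha chain.

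**Figure D1:**
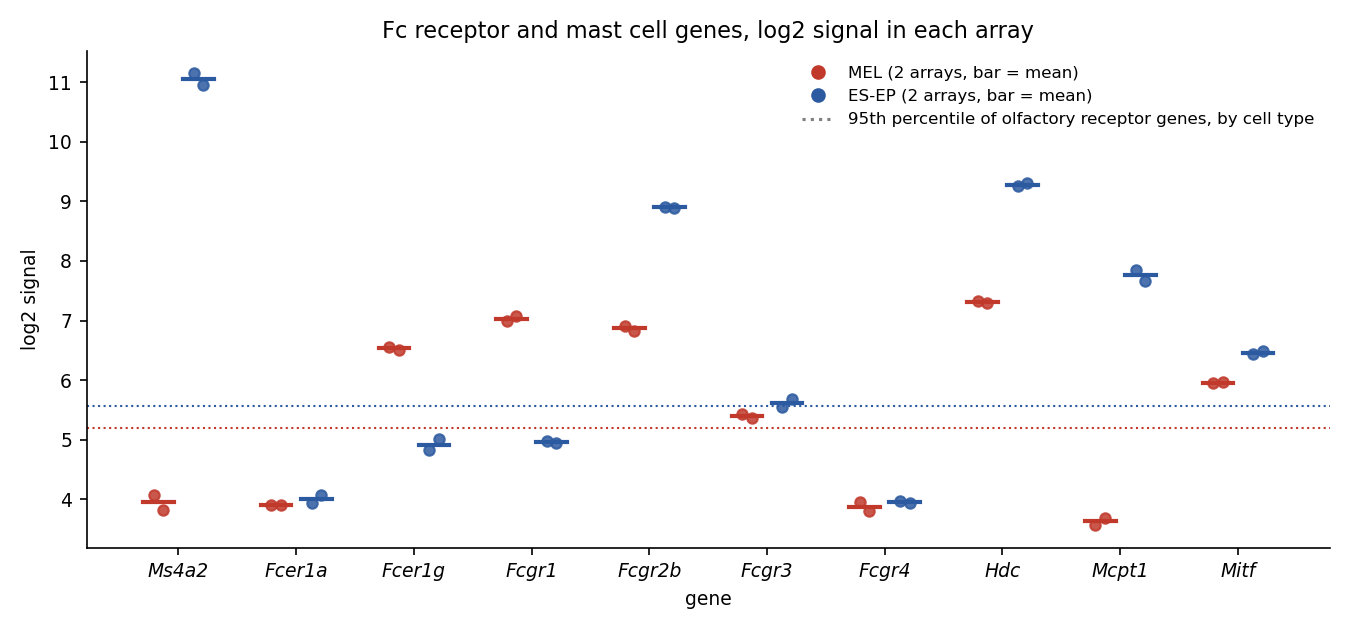
Log2 signal of each of the 10 genes in the 2 MEL arrays (red) and the 2 ES-EP arrays (blue), with bars at the means and dotted lines at the background level of each cell type (5.19 in MEL, 5.56 in ES-EP). Ms4a2 lies near 4 in MEL and near 11 in ES-EP, while Fcer1g and Fcgr1 are above the line only in MEL.

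The IgG receptors also differed in direction. Fcgr1, the high-affinity IgG receptor on chromosome 3, had 6.99 and 7.07 in MEL, against 4.98 and 4.95 in ES-EP. It was above background only in the MEL cultures, with a difference of 2.06 ± 0.08 (SE), or 4.18-fold. Fcgr2b, the inhibitory IgG receptor on chromosome 1, had 6.90 and 6.83 in MEL, against 8.90 and 8.89 in ES-EP. Its groups did not overlap and all 4 arrays were above background, with a difference of -2.03 ± 0.08 (SE), or 4.09-fold. Fcgr3, an activating low-affinity receptor, had 5.44 and 5.36 in MEL, against 5.54 and 5.68 in ES-EP. These values lay close to the background level, and the difference of -0.21 ± 0.09 (SE) was just short of a call. Without ES-EP replicate A the Fcgr3 difference was -0.28. When probe sets were averaged per gene Fcgr3 was called, with a limma adjusted p of 0.0497 in place of 0.0508. Fcgr3 has a single probe set and its difference did not change, so that call came from the other genes in the fit. Fcgr4, another activating receptor, had 3.96 and 3.80 in MEL, against 3.97 and 3.94 in ES-EP. All 4 arrays were at background and the groups overlapped, with a difference of -0.07 ± 0.09 (SE). The extracellular parts of Fcgr2b and Fcgr3 are close in sequence, and whether their probes read each other's RNA was not tested.

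The effector genes were both lower in MEL. Hdc, histidine decarboxylase, makes histamine and lies on chromosome 2. It had 7.32 and 7.29 in MEL, against 9.25 and 9.30 in ES-EP. The groups were apart with every array above background, and the difference was -1.97 ± 0.08 (SE), or 3.92-fold. Mcpt1, a granule protease of mucosal mast cells on chromosome 14, had 3.57 and 3.70 in MEL, against 7.85 and 7.67 in ES-EP. It was at background in both MEL cultures and well above it in both ES-EP cultures. The difference was -4.13 ± 0.09 (SE), or 17.5-fold. In these bulk samples fewer cells of a type and less RNA per cell cannot be told apart.

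Mitf, a basic helix-loop-helix factor of mast cells and melanocytes on chromosome 6, differed less. It had 5.95 and 5.97 in MEL, against 6.44 and 6.48 in ES-EP. The groups did not overlap, and the difference was -0.50 ± 0.08 (SE), or 1.41-fold. A second, dimmer Mitf probe set had 3.12 and 3.11 in MEL, against 3.46 and 3.45 in ES-EP, with a difference of -0.34. These values were below the background level of both cell types and cannot be told from background.

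Of the 10 genes, 7 passed the threshold of the limma fit across all genes (adjusted p of 0.05), 2 higher and 5 lower in MEL. Over all genes 63.8% passed, 20.5% higher and 43.2% lower in MEL. The 6 of 10 that passed with at least a 2-fold difference stood beside 10.0% of all genes, and the 9 of 10 without overlap between groups stood beside 81.8%. These counts follow from how the genes were selected. The median difference was -0.36 for the 10 genes and -0.15 for all genes. Of the 1027 olfactory receptor genes 48.9% also passed, 461 of them lower in MEL, so that a small called difference was common even among genes at background. The groups' array medians differed too, at 5.68 and 5.67 in MEL, against 5.81 and 5.84 in ES-EP.

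The 6 differences over 2-fold stayed over 2-fold under each rescaling, although their sizes moved somewhat. When the arrays were rescaled by quantiles, by medians or by cyclic loess, Ms4a2 lay between -7.01 and -6.95 and Mcpt1 between -4.05 and -3.90. Fcer1g (1.62 with the deposited values) lay between 1.75 and 1.84, and Fcgr1 (2.06) between 2.18 and 2.26. Fcgr2b (-2.03) lay between -2.02 and -1.88, and Hdc (-1.97) between -1.95 and -1.82. Mitf moved to between -0.42 and -0.33. The uncalled genes had no stable sign, since Fcer1a and Fcgr4 were positive under all 3 rescalings and Fcgr3 was positive under cyclic loess (0.03).

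**Figure D2:**
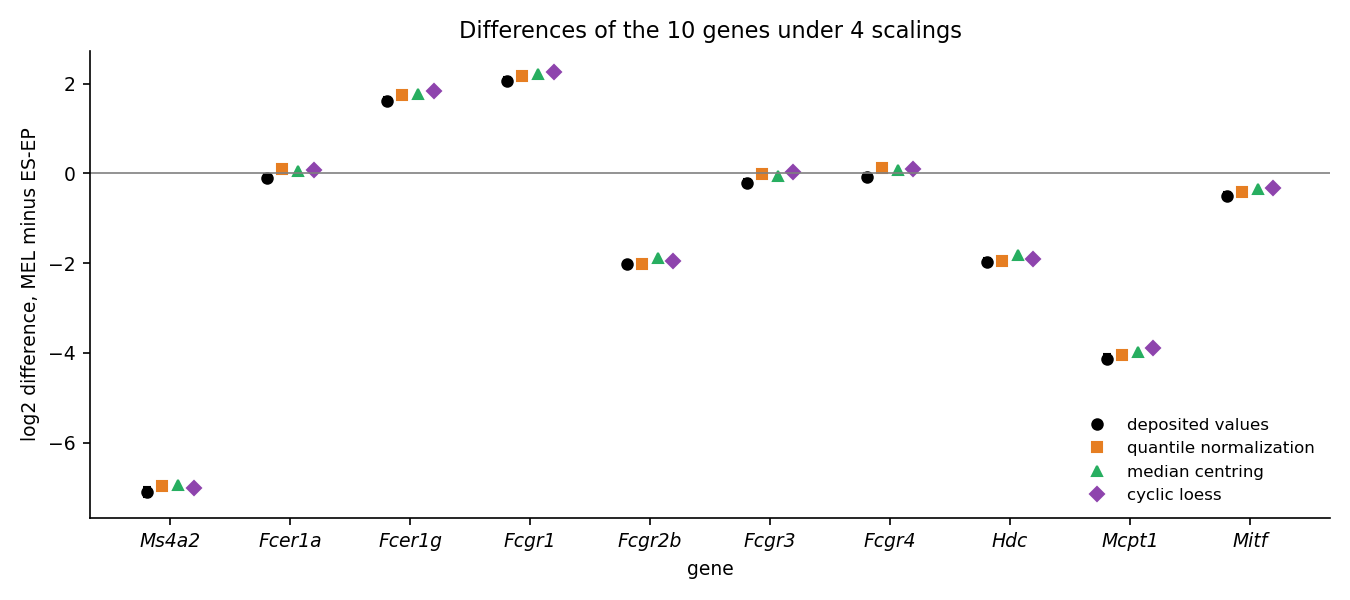
Log2 difference, MEL minus ES-EP, of the 10 genes with the deposited values (black, with the SE) and after 3 rescalings of the arrays. Ms4a2 stays at or below -6.95 throughout, whereas Fcer1a, Fcgr3 and Fcgr4 lie on both sides of 0.

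Several of the genes lie in clusters of related genes, whose neighbors were taken in the order of RefSeq. On chromosome 19 the Ms4a cluster from Ms4a10 to Ms4a3 had 20 measured genes, which include Ms4a2. Of these, 16 were below the background level in both cell types. The gene next to Ms4a2 on one side, Ms4a6d, had 3.85 and 3.79 in MEL, against 4.97 and 5.17 in ES-EP. The gene on its other side, Ms4a3, had 4.39 and 4.34 in MEL, against 4.72 and 4.62 in ES-EP. Both neighbors were below background in each array, and no gene of the cluster but Ms4a2 reached 7 in any array.

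On chromosome 14 the protease cluster from Cma1 to Gzmb had 13 measured genes, of which 11 were below background in both cell types. The exceptions were Mcpt1 and its neighbor Mcpt2, another mucosal mast cell protease. Mcpt2 had 5.22 and 5.12 in MEL, against 9.18 and 9.04 in ES-EP, a difference of -3.94 ± 0.09 (SE, limma adjusted p = 6.77e-11). Mcpt proteases are similar in sequence, and cross-hybridization between them was not tested. On chromosome 1 the stretch from Fcgr2b to Fcer1g had 11 measured genes, with 2 called higher, 4 called lower and 5 not called. Fcgr2b and Fcer1g, at its ends, differed in opposite directions. Sdhc, a subunit of succinate dehydrogenase between them, had 10.77 and 10.64 in MEL, against 10.69 and 10.75 in ES-EP.

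**Figure D3:**
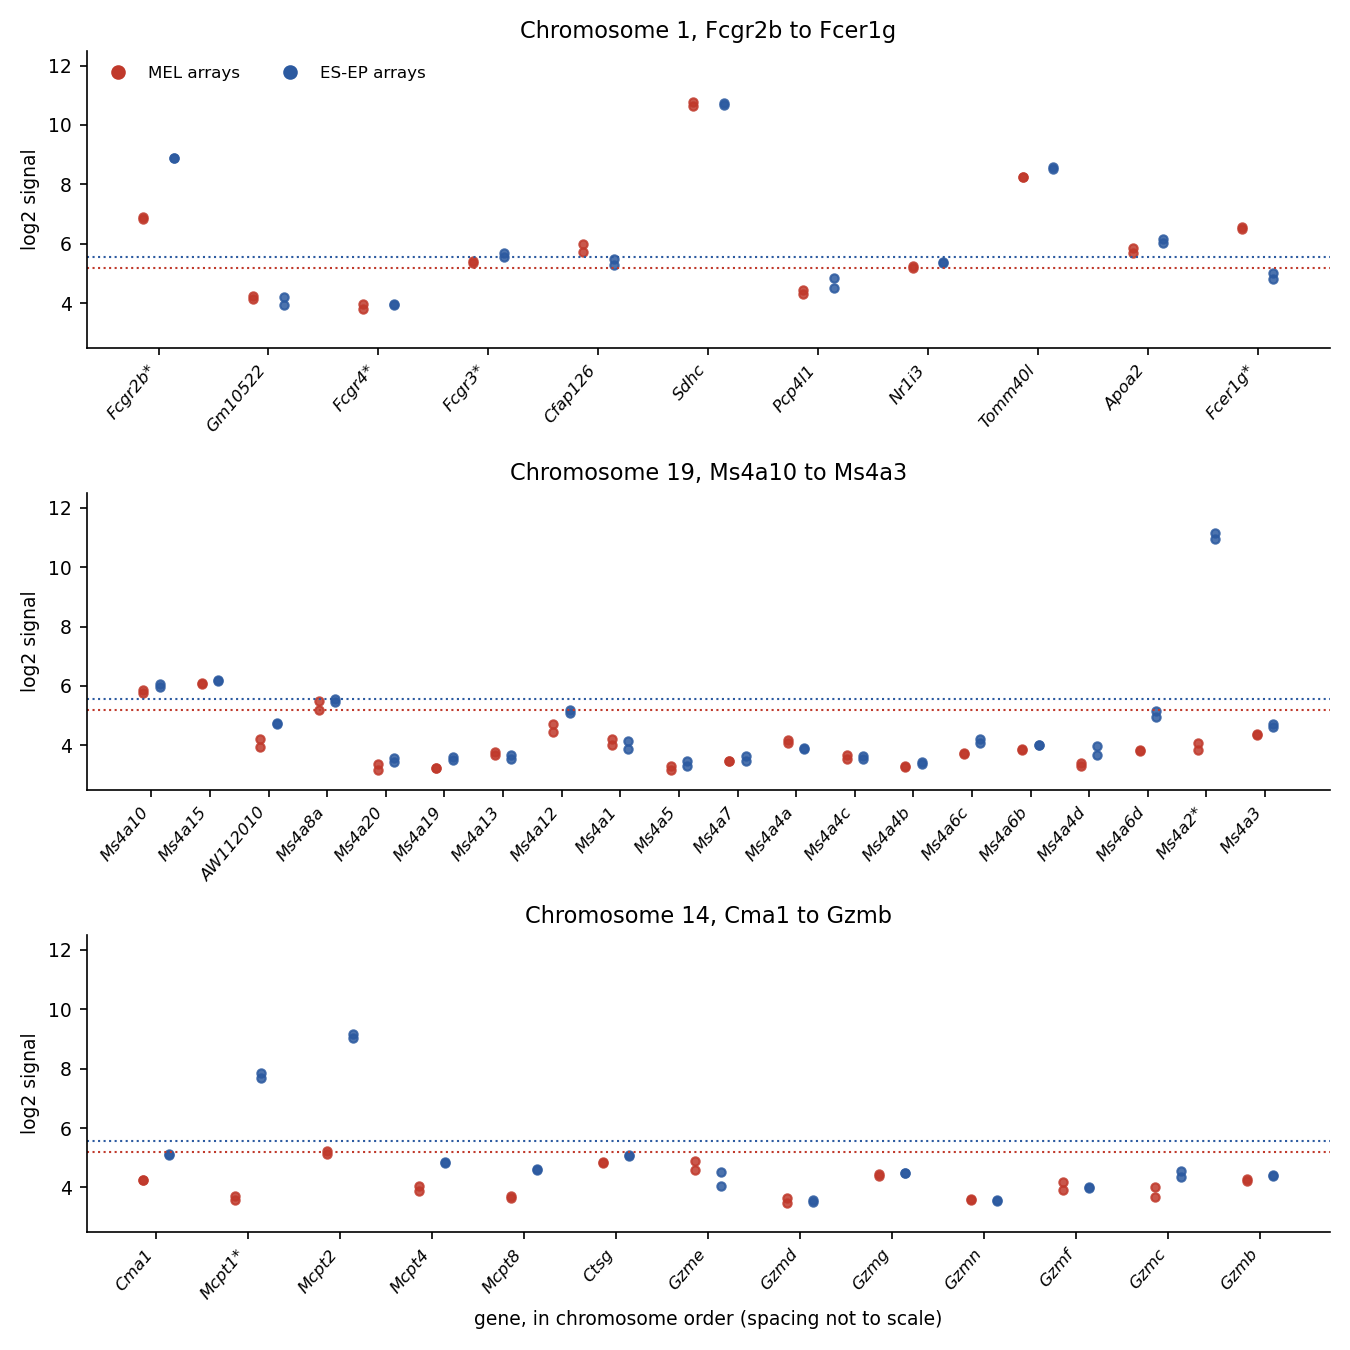
Log2 signal in the 2 MEL arrays (red) and the 2 ES-EP arrays (blue) of the measured genes of 3 clusters in chromosome order, with asterisks on genes of the set and dotted lines at the background level of each cell type. In the Ms4a cluster only Ms4a2 is near 11 in ES-EP, and in the protease cluster only Mcpt1 and Mcpt2 rise above the line.

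The signaling genes downstream of the IgE receptor were mixed in direction. Of 28 measured, 14 were called higher in MEL, 8 lower and 6 neither, with a median of 0.26 beside -0.15 for all genes. For this and every later list, the shares over all genes were 20.5% called higher and 43.2% called lower. Syk, the kinase that docks on the gamma chain, had 8.17 and 8.20 in MEL, against 5.42 and 5.48 in ES-EP, a difference of 2.74 ± 0.08 (SE, limma adjusted p = 5.09e-10). Plcg2, a phospholipase C that drives calcium release, had 8.37 and 8.22 in MEL, against 5.64 and 5.42 in ES-EP, and differed by 2.77 ± 0.10 (SE). The ES-EP means of Syk and Plcg2 were slightly below background, so the sizes of these differences are not exact. The Tec family kinase Btk differed by 1.54 ± 0.08. Gab2, an adaptor that couples the receptor to PI3 kinase, had 7.49 and 7.46 in MEL, against 9.83 and 9.90 in ES-EP, and was lower in MEL (-2.39 ± 0.08). Syk, Plcg2 and Btk were higher in the cells with the Fcer1g signal, and Gab2 in those with the Ms4a2 signal. These genes were named for the size of their differences, and a link to the receptor chains was not tested.

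Of 14 measured genes of granule exocytosis, 3 were called higher in MEL and 6 lower, with a median of -0.12, and 1 of them differed by 2-fold or more. This was Rab27a, a GTPase of granule docking, which was higher in MEL by 1.23 ± 0.08 (SE). The vesicle SNARE Vamp7 was higher by 0.86 ± 0.08 and the SNARE Stx11 by 0.63 ± 0.08. Syt2, a calcium sensor, differed by -0.69 ± 0.09.

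Of 26 other mast cell granule and mediator genes, 4 were called higher in MEL and 14 lower, with a median of -0.24. Without MEL replicate A these counts were 2 and 9. Tph1, the enzyme of peripheral serotonin synthesis, had 4.34 and 4.31 in MEL, against 7.33 and 7.25 in ES-EP (-2.96 ± 0.08, SE). Ndst2, which sulfates the heparin of mast cell granules, averaged 8.02 ± 0.03 in MEL and 10.45 ± 0.01 in ES-EP (SD, n = 2 each), a difference of -2.43 ± 0.08 (SE). In contrast, Alox5, the first enzyme of leukotriene synthesis, averaged 9.03 ± 0.05 in MEL and 4.88 ± 0.01 in ES-EP (SD, n = 2 each), a difference of 4.15 ± 0.08 (SE). Among other proteases of mast cells and basophils, the carboxypeptidase Cpa3 (means of 4.14 in MEL and 4.40 in ES-EP), the chymases Cma1 and Mcpt4, and the tryptase Tpsab1 were below background in both cell types. The tryptase Tpsb2 was slightly above it in both (means of 5.32 in MEL and 5.74 in ES-EP). Tpsg1 (5.25 in MEL and 5.52 in ES-EP) and Prss34 (5.36 in MEL and 5.43 in ES-EP) were slightly above it in MEL only, although neither mean was higher there than in ES-EP. Summed over this list, the log2 signal was 12.83 and 12.85 in MEL, against 13.14 in each ES-EP array.

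The list of mast cell surface receptors had 24 measured genes, a few of which are not receptors, such as a ligand and a transporter. Of these 24, 5 were called higher in MEL and 13 lower, with a median of -0.26. Over all genes 20.5% were called higher and 43.2% lower. After quantile, median or cyclic loess rescaling, 6 of these 24 genes were called higher and 8 lower. Kit, the receptor of SCF, had 5.33 and 5.24 in MEL, against 10.96 and 11.09 in ES-EP, a difference of -5.74 ± 0.09 (SE, limma adjusted p = 1.02e-11). SCF was in the medium of ES-EP only. Csf2rb, the shared beta chain of several cytokine receptors, differed by -2.77 ± 0.09 and its mouse paralog Csf2rb2 by -4.14 ± 0.09. These paralogs are close in sequence and could share probes. Siglecf, a sialic acid receptor known from eosinophils, was higher in MEL by 3.08 ± 0.08.

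Other Fc receptors and ITAM partners were mostly dim, with 16 of 25 below background in both cell types. Of the 25, 3 were called higher in MEL and 11 lower, with a median of -0.22. Without MEL replicate A, 1 was called higher. Tyrobp, an ITAM adaptor of myeloid cells, had 5.90 and 6.05 in MEL, against 5.07 and 4.98 in ES-EP (0.95 ± 0.09, SE). Like Fcer1g, it was above background only in MEL. Fcmr, the IgM receptor, was lower in MEL (-1.01 ± 0.08), as were the adaptor Hcst (-0.86 ± 0.09) and the cytosolic antibody receptor Trim21 (-0.80 ± 0.10). Hcst was below background in both cell types. Of 15 listed and measured Ms4a genes other than Ms4a2, 1 was called higher in MEL and 4 lower, with a median of -0.14, and leaving out any single culture lost the higher call. The 4 lower were Ms4a6d (-1.25 ± 0.09), Ms4a4d (-0.48 ± 0.11), Ms4a6c (-0.41 ± 0.08) and Ms4a3 (-0.31 ± 0.08). Ms4a12 (-0.55 ± 0.10), Ms4a19 (-0.31 ± 0.08) and Ms4a20 (-0.24 ± 0.09) of the chromosome 19 cluster were not on the list and were also called lower. All 7 of these genes were below background in both cell types.

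**Figure D4:**
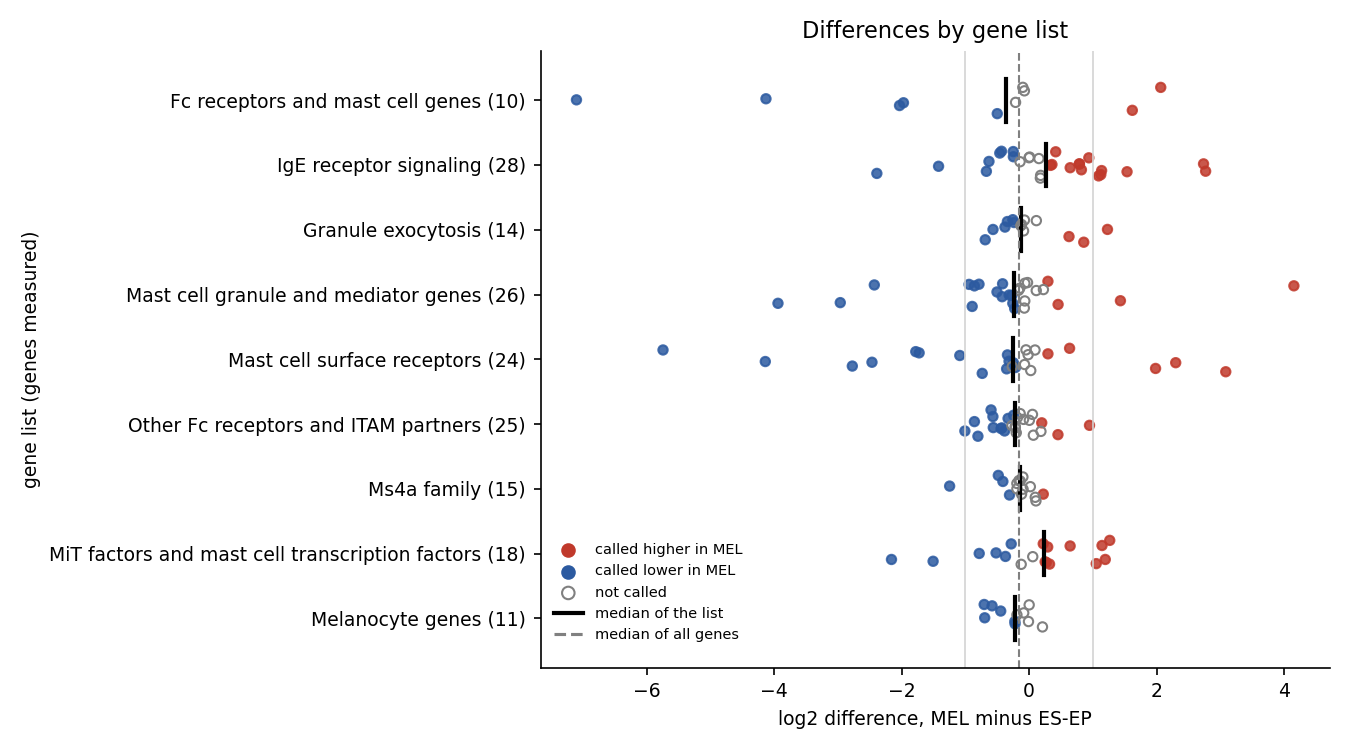
Log2 difference, MEL minus ES-EP, of the 10 genes and of 8 lists of related genes, 1 point per measured gene, with black bars at list medians, a dashed line at the median of all genes (-0.15) and grey lines at 2-fold. The surface receptor and granule lists reach far on both sides, to Kit (-5.74) and Siglecf (3.08) and to Mcpt2 (-3.94) and Alox5 (4.15), and the signaling and transcription factor lists have medians above 0 (0.26 and 0.24).

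Of 18 MiT family and mast cell transcription factors, 10 were called higher in MEL and 6 lower, with a median of 0.24. The higher count was 5 without MEL replicate A and 6 without ES-EP replicate A. Gata2, a factor of progenitors and mast cells, had 6.91 and 6.68 in MEL, against 8.94 and 8.96 in ES-EP (-2.16 ± 0.09, SE). Gata1, the erythroid GATA factor, had 12.38 and 12.34 in MEL, against 11.15 and 11.29 in ES-EP (1.14 ± 0.08). MEL cells carry the GATA-1 fusion, and whether the Gata1 probes read it was not tested. Spi1, which encodes the ETS factor PU.1, differed by 1.05 ± 0.09, and the myeloid factor Cebpa by 1.26 ± 0.10. Bhlhe40, a basic helix-loop-helix repressor, averaged 8.82 in MEL and 7.63 in ES-EP, or 2.29-fold. Hes1, a Notch target, was lower in MEL (-1.51 ± 0.10). Of the relatives of Mitf, Tfe3 (0.25 ± 0.09) and Tfeb (0.32 ± 0.08) were called higher in MEL, and Tfec (-0.78 ± 0.10) was called lower while below background in both. These 3 relatives were picked for their kinship to Mitf after their values were seen.

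Melanocyte genes, the other set associated with Mitf, were dim. Of 11 measured, 0 were called higher in MEL and 6 lower by limma, with a median of -0.22, and 7 were below background in both cell types. Of the 1027 olfactory receptor genes, 41 were called higher and 461 lower, with a median of -0.20. The melanocyte counts were 3 higher and 4 lower after quantile rescaling, 1 and 4 after median centring, and 2 and 3 after cyclic loess. The largest called differences were those of Sox10 (-0.70 ± 0.08, SE), Mlana (-0.70 ± 0.10), Trpm1 (-0.58 ± 0.09) and Mc1r (-0.45 ± 0.09).

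The genes most like Ms4a2 across the 4 arrays, by the distance between log2 signals centered on each gene's mean, were Grb10 (root mean square distance of 0.41), A26c3 (0.43) and Nebl (0.53). Grb10, an adaptor of insulin and growth factor receptors, had 4.53 and 4.54 in MEL, against 10.83 and 10.89 in ES-EP. No other gene came within 0.1 of Ms4a2. The distance is not scaled, so it largely follows the size of the difference, on which the genes were selected. For Mitf the closest were Cep44 (0.0027), Bfsp1 (0.0058) and Htr5a (0.0065), but 3474 genes lay within 0.1 of it. A difference of the size of that of Mitf was thus common in these arrays.

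Markers of other cell types were examined beside these results. All 13 measured erythroid markers were above background in both cell types, with 2 called higher in MEL and 10 lower, and the log2 of their summed signal was 14.37 and 14.31 in MEL, against 15.01 and 15.11 in ES-EP. Of 7 basophil markers 0 were called higher in MEL and 6 lower by limma, with a summed signal of 8.08 and 8.16 in MEL, against 8.76 and 8.71 in ES-EP. Of these 7, 3 were below background in both cell types. They include the basophil protease Mcpt8 and Cd200r3, which differed most (-1.78 ± 0.09, SE). Another 3 were above background in both, among them Il3ra (means of 6.55 in MEL and 7.29 in ES-EP) and, barely, Ifitm1 (5.21 in MEL and 5.71 in ES-EP). Of 16 macrophage and monocyte markers 1 was called higher in MEL and 7 lower, with a summed signal of 9.47 and 9.47 in MEL, against 9.19 and 9.26 in ES-EP, and 11 were below background in both. After quantile or cyclic loess rescaling 3 were higher and 3 lower, after median centring 4 and 4, and without MEL replicate A 4 were lower. The 1 higher was Ccr2, a monocyte chemokine receptor, with 7.62 and 7.68 in MEL, against 3.63 and 3.62 in ES-EP. Ccr2 was the brightest of these markers in MEL and so weighs most in their summed signal there. The defining macrophage receptor Csf1r averaged 4.71 in MEL, below background, and 5.61 in ES-EP, close to the background level. The integrin Itgam averaged 4.44 in MEL and 4.35 in ES-EP, below background in both. In contrast, 2 of the 16 were above background in both cell types. These were Cd68 (means of 7.17 in MEL and 7.09 in ES-EP) and Cx3cr1 (5.89 in MEL and 6.14 in ES-EP).

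Of 13 neutrophil markers 3 were called higher in MEL and 5 lower, with a summed signal of 8.76 and 8.72 in MEL, against 8.55 and 8.56 in ES-EP. Lower calls did not outnumber higher ones after rescaling, with 4 higher and 1 lower by quantiles or cyclic loess and 3 and 1 by median centring. Without MEL replicate A or B 1 was higher and 3 lower, and 3 were lower without ES-EP replicate A and 2 without ES-EP replicate B. The protease gene Prtn3 differed most, by 1.68 ± 0.09 (SE). It was the brightest neutrophil marker in MEL, with means of 7.15 in MEL and 5.47 in ES-EP, and so weighs most in the summed signal there. Of 7 measured megakaryocyte markers 6 were called higher in MEL and 1 lower, with a summed signal of 10.98 and 10.89 in MEL, against 9.39 and 9.42 in ES-EP. The lower call was lost under every rescaling and whenever a culture other than ES-EP replicate B was left out. Pf4, a platelet chemokine, differed by 4.96 ± 0.09. The platelet integrin Itga2b averaged 9.06 ± 0.09 in MEL and 6.76 ± 0.01 in ES-EP (SD, n = 2 each). Of 11 B cell markers 0 were called higher in MEL and 7 lower by limma, and of 11 T and NK cell markers 1 was called higher and 4 lower, with 8 of each list below background in both. B cell markers called lower were 3 after quantile or cyclic loess rescaling and 4 after median centring, without MEL replicate B or without ES-EP replicate B. T and NK cell markers called higher were 2 under each rescaling and 0 by limma without MEL replicate B and also without ES-EP replicate A, and those called lower were 2 after cyclic loess. Of the melanocyte, basophil and B cell lists, 0 genes were higher in MEL at an unadjusted limma p under 0.05 either, with the deposited values. The part of any of these cell types in the differences of the 10 genes was not tested.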

How the data were processed

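RNA from duplicate cultures of MEL and ES-EP cells was measured on 4 arrays. The authors normalized them by RMA in GeneSpring GX, and the deposited values are log2 signals, 1 column per array, for 35557 probe sets. The submitters' processing notes list the genome build mm9, but the values used here carry no coordinates. Array medians still differed between groups. The number of arrays limits the precision.

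Of the probe sets, 21789 had a single gene symbol, 1621 had several and 12147 were unnamed here. Only those with 1 symbol were used, and each of 19938 genes was represented by its brightest probe set on average over the arrays, with no filter on low signals. The difference, MEL minus ES-EP, was tested two-sided by moderated linear models without a block (limma 3.58.1 in R 4.3.3). There were 2 residual degrees of freedom per gene and the prior had 8.2. Genes with a Benjamini-Hochberg adjusted p under 0.05 over all genes were called. An exact permutation of 2 against 2 arrays cannot give a small p. Both cultures of a group come from 1 line, and a p-value reflects how far such cultures vary and nothing else. The deviations of same-letter arrays correlated at -0.0357, and replicate letters were not used to pair the samples. This value cannot show whether same-letter cultures were handled together.

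The 10 genes, the gene lists and the background level were chosen with earlier results of these data known. The genes named are these 10, up to 4 called genes of each list with the largest differences (with Gata1, Spi1 and Kit always), the 3 genes most like Ms4a2 and Mitf, and a few singled out for their role or position after their values were seen (cluster neighbors, mast cell proteases, relatives of Mitf, and macrophage markers). For the erythroid, B, T and NK cell markers no further gene is named. List genes without a probe set of their own, such as Lyn, Il1rl1 and Fcgrt, were not analysed here. Tables were handled in Python 3.11.15 with pandas 2.3.3, numpy 2.4.6 and matplotlib 3.10.9. Promoters and gene order were taken from RefSeq (GRCm38.p6). The alternatives were quantile, median and cyclic loess rescaling, a filter at the median mean signal, the mean of probe sets, a replicate block, a trended robust prior, the omission of each culture, and a test for differences larger than 1.2-fold.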

Additional observations from a re-analysis of the deposited data

How the results depend on the processing

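No called difference among the 10 genes changed direction under any alternative run. The median difference of all genes was -0.15, and -0.03, -0.01 and -0.003 after quantile, median and cyclic loess rescaling, and 32.2% of calls were higher in MEL, against 47.2%, 50.5% and 51.0% after these rescalings and 45.5% after the filter at the median mean signal. Genes called numbered 12718, and 7117 after the filter and 6391 in the test against a 1.2-fold difference. Those called higher numbered 4096, and 2488 in the 1.2-fold test. Those called lower numbered 8622, and 5644 after median centring, 5460 after cyclic loess, 3876 after the filter and 3903 in the 1.2-fold test. With the replicate block 12709 genes and 7 of the 10 genes were called, and among the counts of the lists the block moved by over 1.5 times only that of megakaryocyte markers called lower, which was 0 by limma in place of 1 (as after quantile rescaling). With the mean of probe sets 8 of the 10 were called, Fcgr3 being added although its own difference did not change. The filter left 4 of the 10 genes called, 3 of them over 2-fold, because it removes genes and not because they changed.

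Counts of the lists moved as follows. After quantile rescaling, the lower calls were 3 for exocytosis, 8 for surface receptors and 7 for other Fc receptors, and the higher calls were 6 for other Fc receptors, 2 for Ms4a and 3 for melanocyte genes. After median centring, the lower calls were 3 for exocytosis, 9 for granule genes and 8 for surface receptors, and the higher calls were 5 for other Fc receptors, 2 for Ms4a and 1 for melanocyte genes. After cyclic loess, the lower calls were 5 for IgE signaling, 2 for exocytosis, 8 for granule genes, 8 for surface receptors, 7 for other Fc receptors and 3 for melanocyte genes, and the higher calls were 7 for other Fc receptors, 2 for Ms4a and 2 for melanocyte genes. After the filter, the lower calls were 4 for IgE signaling, 3 for exocytosis, 3 for granule genes, 6 for surface receptors, 1 for other Fc receptors, 0 for Ms4a and 0 for melanocyte genes by limma, and the higher calls were 2 for granule genes, 3 for surface receptors, 0 for other Fc receptors and 0 for Ms4a. In the 1.2-fold test, the lower calls were 4 for IgE signaling, 2 for exocytosis, 8 for granule genes, 8 for surface receptors, 5 for other Fc receptors, 1 for Ms4a and 3 for melanocyte genes, and the higher calls were 2 for granule genes, 1 for other Fc receptors, 0 for Ms4a and 5 for transcription factors. Markers of basophils, macrophages, neutrophils, B cells, and T and NK cells called lower were 2, 0, 0, 0 and 0 by limma after the filter and 3, 3, 1, 2 and 2 in the 1.2-fold test. With each culture left out in turn, which assumes that the lone culture varies like the other group, granule genes called higher ranged from 2 to 4 and lower from 9 to 11, other Fc receptors called higher from 1 to 3, transcription factors called higher from 5 to 10, and Ms4a genes called higher were 0 each time. Apart from the filter and the stricter test, which by construction admit fewer calls, the cause was not tested.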
